A study of Danio rerio with 6 samples.

Results

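The antioxidant and glutathione genes were compared between hair cells of the adult zebrafish inner ear and the cells that surround them. They were chosen by a rule on gene symbols that uses no measured value, but the choice was made with earlier results of these data known. The rule covers glutathione peroxidases (gpx), peroxiredoxins (prdx) and sulfiredoxin (srxn1), superoxide dismutases (sod) and catalase (cat), thioredoxins and relatives (txn), glutaredoxins (glrx), cytosolic and microsomal glutathione S-transferases (gst, mgst), the enzymes of glutathione synthesis and reduction (gclc, gclm, gss, gsr), the regulators Nrf (nfe2l) and Keap1, their classic targets nqo1 and hmox, and the methionine sulfoxide reductases (msra, msrb). The symbols matched 77 of the 31387 gene rows. All groups came from females of the strain Tg(pou4f3:GAP-GFP)s273t, 11 to 13 months of age, in which pou4f3, the gene of a transcription factor of hair cells, lends its promoter to a membrane-bound green fluorescent protein. Hair cells were the fluorescent cells of lagena, utricle and saccule combined, with 2 biological replicates, and surrounding cells were those without fluorescence, with 1 biological sample. Each sample held 2000 cells and was sequenced as 2 technical replicates, which were averaged and counted as 1 sample.

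Respiring cells constantly make superoxide and hydrogen peroxide. Superoxide dismutases turn superoxide into hydrogen peroxide, which catalase, glutathione peroxidases and peroxiredoxins then remove. The peroxidases are recharged by glutathione or thioredoxin, which in turn draw electrons from NADPH through glutathione reductase and thioredoxin reductase. Glutathione S-transferases couple glutathione to reactive compounds, and methionine sulfoxide reductases repair oxidised methionine in proteins. The transcription factor Nrf2 raises many of these genes under oxidant stress and is held down by the adaptor Keap1, which marks it for degradation. In the ear, reactive oxygen species are a known part of the hair cell damage caused by noise and by aminoglycoside antibiotics.

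Mapped reads numbered between 15843692 and 17281834 per technical replicate in hair cell replicate 1 and the surrounding cells, and 50791022 and 51566819 in hair cell replicate 2. The share of mapped reads that fell in genes was 58.4%, 60.9% and 50.8% in hair cell replicates 1 and 2 and the surrounding cells. In the labels, a name prefix is shared by the surrounding cells and hair cell replicate 1 but not by replicate 2, and WT, left unexplained, is part of the surrounding cells' name. All 13 hair cell markers were called higher in hair cells, with a summed level of 17611 and 17423 RPKM against 16.1 RPKM, so the labels held. Of the 8 supporting cell markers tested, 6 were also called higher in the hair cell samples and 2 lower (summed level 1878 and 2129 RPKM against 34.1 RPKM), while sox2 was at or near 0 in all samples (0.0152, 0 and 0 RPKM), and the part of these markers' cells in the higher calls was not tested. Most markers of other tissues were higher in the surrounding cells: all 10 keratin and epithelium markers tested, 10 of 11 fibroblast and matrix markers, 6 of 8 leukocyte markers and 6 of 7 endothelial markers were called lower in hair cells. Other markers did not share that direction. The leukocyte marker lyz was called higher in hair cells, at 31.4 and 22.2 RPKM against 0.722 RPKM, neuron and glia markers had 2 higher and 2 lower calls among 7 tested, with sncb at 129 and 110 RPKM in hair cells and 1.19 RPKM in surrounding cells, and none of 5 red blood cell markers was called. In bulk samples such as these, fewer cells of a type and less RNA per cell cannot be told apart.

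Of the 77 genes, 63 reached 1 RPKM (read number divided by gene length and by the depth of the library) in at least 1 biological sample. They were tested with limma on the log2(RPKM + 1) scale together with all other genes. Calls required an adjusted p under 0.05 together with a difference of 1 or more on the log2 scale. The single surrounding cell sample gives no spread of its own, so the test took its spread from the hair cell samples, and nothing in the labels says that the replicates came from separate groups of fish, so that p-values measure only the spread between these samples.

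Genes called higher in hair cells included glutathione peroxidases, peroxiredoxins, superoxide dismutases and methionine sulfoxide reductases, led by gpx1b, and those called lower included microsomal transferases and nfe2l2a, the gene for Nrf2. In all, 19 of the 63 tested genes were higher in hair cells by this call (30.2%, against 17.7% of all 15803 genes tested) and 8 were called lower (12.7%, against 18.0%). Calls in either direction were made for 35.8% of all genes. The remaining 36 genes were not called. The median difference of the 63 genes was 0.23 on the log2 scale, and that of all genes tested was 0.15. With the limit raised to 5 RPKM, 21 of 52 genes were called higher and 11 lower, where 32.1% and 20.3% of all genes tested were. The medians were then 0.45 for these genes and 0.43 for all genes. Together the 77 genes took 0.791% and 0.882% of the summed RPKM of the hair cell replicates and 0.579% of that of the surrounding cells. Their summed level was 2837 and 3312 RPKM in hair cells and 1715 RPKM in surrounding cells.

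The balance of the calls depended on scaling. Median-ratio scaling, which lines up the typical gene of each sample, shifted the median difference of all genes by -0.25 on the log2 scale. Of the calls among these genes, 70.4% were higher in hair cells as deposited and 43.5% after that scaling. Over all genes the share of calls that were higher went from 49.5% to 38.8%. With the scaling, 10 of the 63 genes were called higher and 13 lower, where 14.04% and 22.16% of all genes were. Both shares of these genes thus lay near those of all genes. All 8 lower calls and 10 of the 19 higher calls were kept under median-ratio scaling. With no filter on low values, 7 higher and 5 lower calls remained among 77 genes, where 5.52% of all genes were called higher and 6.56% lower. The calls lost there, at adjusted p from 0.051 to 0.12, were those of prdx2, gpx4a, msrb1a, msrb1b, msrb3, sod1, sod2, gclc, keap1a, nfe2l1b, txndc12, txnl4a, prdx6, gstal and txn. Across every alternative that had a test, 5 higher calls (gpx1b, gpx4b, prdx3, gstm and txnrd1) and 4 lower calls (mgst1.1, mgst1.2, gstt1b and nfe2l2a) were made each time. A rule of size without a test, at least 2-fold in both hair cell replicates, gave 20 higher and 11 lower (18.6% and 18.0% of all genes). A fit on whole reads recovered from the RPKM values gave 22 higher and 12 lower (18.4% and 21.1% of all genes).

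**Figure D1:**
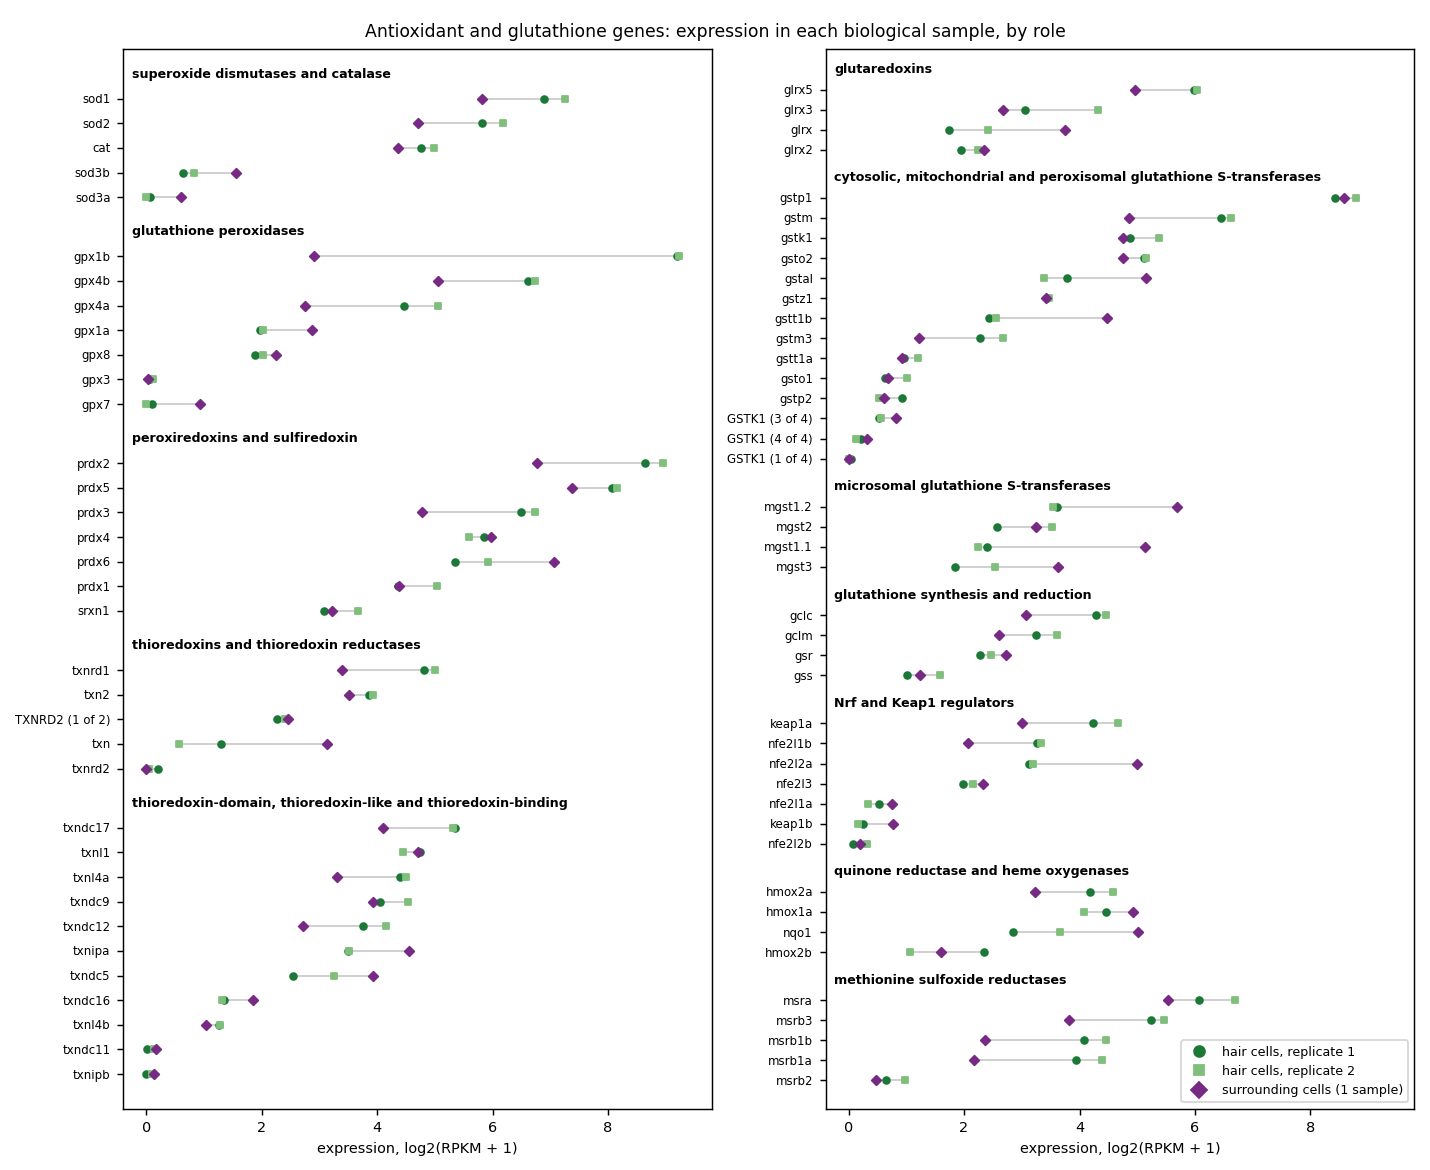
Expression of all 77 genes in each biological sample, grouped by role. The x axis is log2(RPKM + 1), circles and squares are hair cell replicates 1 and 2, diamonds are the surrounding cells, and grey lines span the 3 values of a gene. gpx1b shows the widest gap, with 582 and 597 RPKM in hair cells and 6.45 RPKM in surrounding cells.

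Glutathione peroxidases use glutathione to remove peroxides. Of the 5 tested, 3 were called higher in hair cells (60%, against 17.7% of all genes) and none lower (against 18.0%). gpx1b, a copy of the main cytosolic enzyme on chromosome 6 (ENSDARG00000006207), was at 582 and 597 RPKM in hair cells and 6.45 RPKM in surrounding cells. Both hair cell samples stood far above the surrounding cells and close to each other. The log2 difference was 6.31 ± 0.20 (SE), with a 95% interval from 5.71 to 6.91 and an adjusted p of 0.0072, and the mean level was 91.4-fold higher. In hair cells its level exceeded that of 99.6% of tested genes in both replicates, against 70.5% in surrounding cells. Its reads numbered 16079 and 52940 in hair cells and 192 in surrounding cells.

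The second copy, gpx1a on chromosome 11, had the opposite order. Its levels were 2.92 and 3.05 RPKM in hair cells and 6.33 RPKM in surrounding cells, a log2 difference of -0.88 ± 0.26 (SE) that was not called (adjusted p = 0.079). After scaling by median ratios it was called lower, at -1.16. In surrounding cells gpx1a and gpx1b were thus near equal in level, while in hair cells nearly all of the summed level of both came from gpx1b.

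gpx4 reduces peroxides of membrane lipids and, in mammals, guards against ferroptosis. Both zebrafish copies were called higher. gpx4a was at 21.0 and 32.0 RPKM in hair cells and 5.74 RPKM in surrounding cells (log2 difference 2.00 ± 0.35 (SE), adjusted p = 0.026, and 0.087 with no filter on low values). gpx4b was at 96.8 and 106 RPKM in hair cells and 32.3 RPKM in surrounding cells (1.62 ± 0.20 (SE), adjusted p = 0.014). The hair cell values lay above the surrounding cell value for both genes. gpx8, an enzyme of the endoplasmic reticulum in mammals, was at 2.70 and 3.06 RPKM in hair cells and 3.72 RPKM in surrounding cells and was not called. gpx3, secreted in mammals, reached at most 0.0847 RPKM, and gpx7, another endoplasmic reticulum enzyme, was at 0.0654 and 0 RPKM in hair cells and 0.915 RPKM in surrounding cells.

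The make-up of the peroxidase group differed between the cells. gpx1b made up 82.5% and 80.6% of the summed RPKM of the 7 symbols in hair cells and 11.6% in surrounding cells, where gpx4b led with 58.2%. A further glutathione peroxidase escaped the choice by symbol. The row with the clone name si:ch73-199k24.2 (ENSDARG00000089149, chromosome 17) carries the symbol gpx2 in a current table of gene names. It was at 1345 and 1471 RPKM in hair cells and 1.38 RPKM in surrounding cells, a log2 difference of 9.21 ± 0.21 (SE) with an adjusted p of 0.0072. With it the peroxidases summed to 2050 and 2213 RPKM in hair cells and 56.9 RPKM in surrounding cells, and gpx2 took 65.6% and 66.5% of that sum in hair cells.

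**Figure D2:**
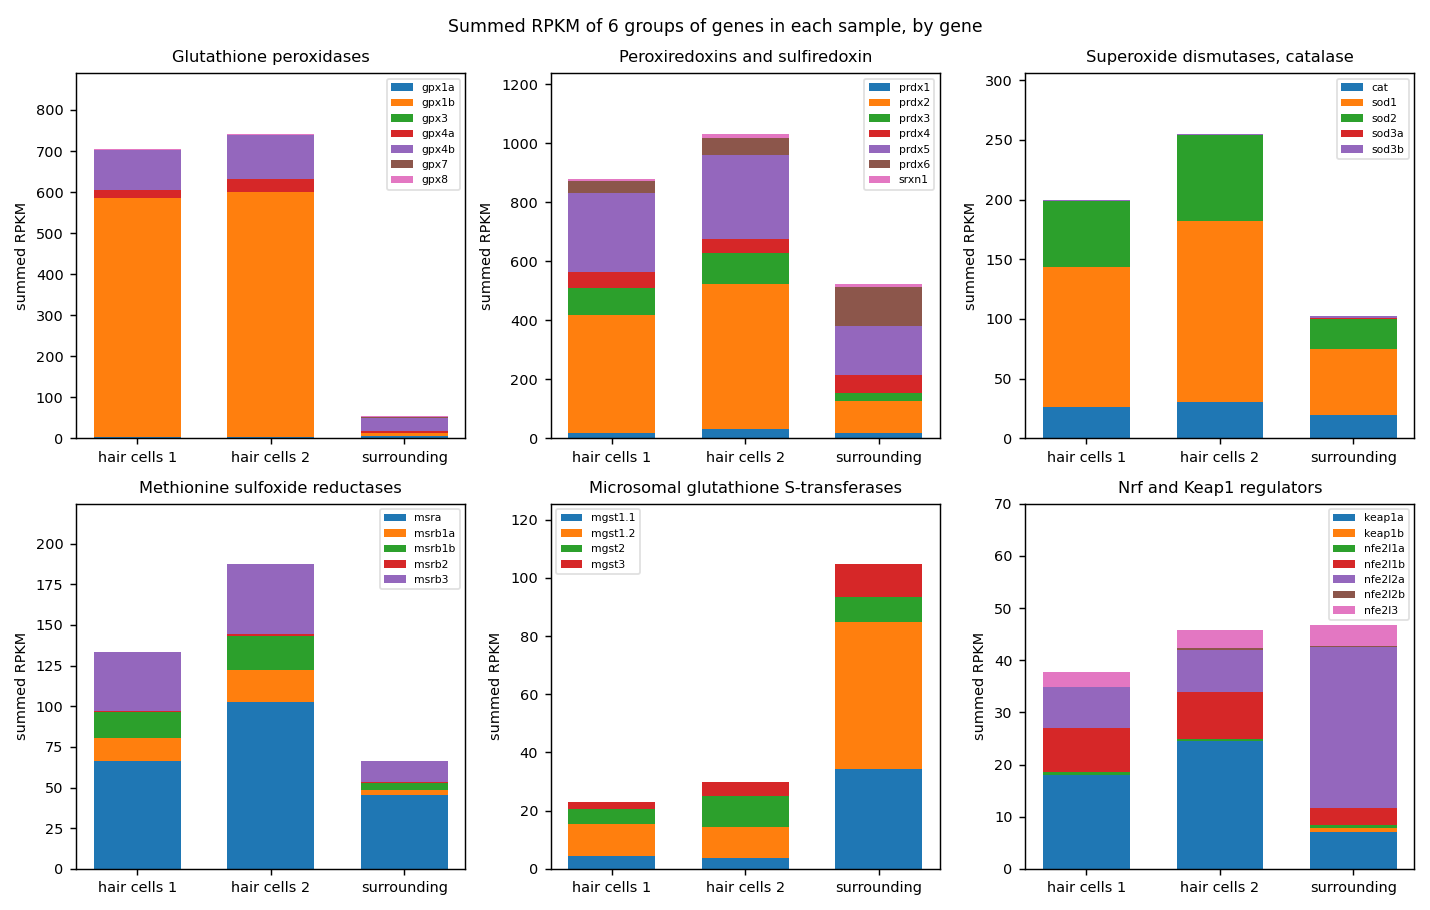
Summed RPKM of 6 groups of genes, with 1 bar per biological sample and 1 colour per gene. Bars start at 0 and each panel has its own scale. In the peroxidase panel gpx1b fills 82.5% and 80.6% of the hair cell bars, and in the regulator panel nfe2l2a takes 66.2% of the surrounding cell bar against 20.4% and 17.9% of the hair cell bars.

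Peroxiredoxins remove peroxides with electrons from thioredoxin. Among the 7 genes of this group, which includes sulfiredoxin, 2 were called higher and 1 lower in hair cells (28.6% and 14.3%, against 17.7% and 18.0% of all genes). prdx2 is named for a cytosolic enzyme that is also abundant in red blood cells, and the row's current symbol is PRDX1. It was the most abundant member in hair cells, at 399 and 491 RPKM against 108 RPKM in surrounding cells. Its log2 difference was 2.03 ± 0.26 (SE) with an adjusted p of 0.014, which became 0.053 with no filter on low values. Of the 5 red blood cell markers limma called none, 0 of them had p under 0.05 before adjustment, and the recovered reads gave 2 lower calls. Their summed level was 290 and 105 RPKM in hair cells and 387 RPKM in surrounding cells, and their part in the prdx2 values was not tested. The mitochondrial prdx3 was at 89.4 and 105 RPKM in hair cells and 26.5 RPKM in surrounding cells (1.84 ± 0.22 (SE), adjusted p = 0.013). Both hair cell values exceeded the surrounding cell value for each of these genes.

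prdx6, which uses glutathione in place of thioredoxin and has phospholipase activity in mammals, went the other way. It was at 39.5 and 59.3 RPKM in hair cells and 133 RPKM in surrounding cells (log2 difference -1.44 ± 0.33 (SE), adjusted p = 0.046). The call was lost with a pseudocount of 0.1 or 5 RPKM, with no filter on low values and with no variance trend, at adjusted p from 0.054 to 0.12. prdx5, found in mitochondria and peroxisomes in mammals, had 266 and 284 RPKM in hair cells and 165 RPKM in surrounding cells and was not called (0.73 ± 0.21 (SE), adjusted p = 0.075). The endoplasmic reticulum enzyme prdx4 had 56.9 and 47.0 RPKM in hair cells and 61.6 RPKM in surrounding cells, and its interval ran from -0.94 to 0.44. For the cytosolic prdx1 the values overlapped, at 19.5 and 31.8 RPKM in hair cells and 19.7 RPKM in surrounding cells. srxn1, which restores over-oxidised peroxiredoxins, overlapped too, at 7.48 and 11.7 RPKM in hair cells and 8.32 RPKM in surrounding cells. prdx2 made up 45.5% and 47.7% of the summed level of this group in hair cells and 20.6% in surrounding cells, and prdx6 made up 4.50% and 5.75% in hair cells and 25.5% in surrounding cells.

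Of the superoxide dismutases and catalase, 2 of 4 tested were called higher in hair cells (50%, against 17.7% of all genes) and none lower (against 18.0%). sod1, the cytosolic copper and zinc enzyme, was at 117 and 152 RPKM in hair cells and 55.5 RPKM in surrounding cells (log2 difference 1.25 ± 0.26 (SE), adjusted p = 0.038). sod2, the manganese enzyme of mitochondria, was at 55.6 and 71.6 RPKM in hair cells and 25.1 RPKM in surrounding cells (1.30 ± 0.26 (SE), adjusted p = 0.034). Both hair cell replicates were above the surrounding cells for these genes, and both calls were lost after scaling by median ratios, at 0.92 and 0.97. The peroxisomal enzyme catalase had 26.2 and 30.5 RPKM in hair cells and 19.4 RPKM in surrounding cells, with an interval from -0.14 to 1.18. The secreted dismutases were scarce. sod3b had 0.552 and 0.784 RPKM in hair cells and 1.95 RPKM in surrounding cells (adjusted p = 0.052), and sod3a had 0.0439 and 0 RPKM in hair cells and 0.514 RPKM in surrounding cells. The mix of the group was alike in all samples: sod1 gave 58.7% and 59.6% of its summed level in hair cells and 54.2% in surrounding cells.

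Thioredoxin passes electrons from thioredoxin reductase to peroxiredoxins and other proteins. txnrd1, named for the cytosolic reductase but with the current symbol TXNRD3, was called higher. Its levels were 27.2 and 31.1 RPKM in hair cells and 9.50 RPKM in surrounding cells (log2 difference 1.52 ± 0.22 (SE), adjusted p = 0.019). The row named txn (ENSDARG00000044125, chromosome 7), a thioredoxin with the current symbol txnb, was called lower. Its levels were 1.44 and 0.485 RPKM in hair cells and 7.81 RPKM in surrounding cells (-2.21 ± 0.42 (SE), adjusted p = 0.031), and the call was lost with a pseudocount of 0.1 RPKM or with no filter, at adjusted p of 0.067 and 0.10. More abundant was the row zgc:56493, whose current symbol is TXN, with 193 and 274 RPKM in hair cells and 155 RPKM in surrounding cells, which was not called (0.56 ± 0.31 (SE)). The mitochondrial thioredoxin txn2 was at 13.6 and 14.3 RPKM in hair cells and 10.4 RPKM in surrounding cells and was not called. The mitochondrial reductase was split over rows. TXNRD2 (1 of 2) had 3.78 and 4.29 RPKM in hair cells and 4.52 RPKM in surrounding cells, and the row txnrd2 stayed under 1 RPKM, so that reads shared between such rows could be split in ways that the table does not show.

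Among the proteins that carry or bind a thioredoxin fold, 3 of 9 tested were called higher and 1 lower in hair cells (33.3% and 11.1%, against 17.7% and 18.0% of all genes). txndc17, a small thioredoxin-like protein of the cytosol, had 39.8 and 38.6 RPKM in hair cells and 16.2 RPKM in surrounding cells (log2 difference 1.22 ± 0.20 (SE), adjusted p = 0.023). txndc12, of the endoplasmic reticulum, had 12.4 and 16.7 RPKM in hair cells and 5.59 RPKM in surrounding cells (1.23 ± 0.29 (SE), adjusted p = 0.048). txnl4a carries the thioredoxin fold but is a protein of the splicing machinery, and had 20.1 and 21.6 RPKM in hair cells and 8.93 RPKM in surrounding cells (1.14 ± 0.21 (SE), adjusted p = 0.031). None of these 3 calls was made after scaling by median ratios. The txndc12 call was also lost with a pseudocount of 0.1 or 5 RPKM, with no filter on low values and with no variance trend. That of txnl4a was also lost with a pseudocount of 5 RPKM and with no filter. txnipa, the thioredoxin-interacting protein that inhibits thioredoxin in mammals, was called lower at 10.3 and 10.4 RPKM in hair cells and 22.4 RPKM in surrounding cells (-1.04 ± 0.21 (SE), adjusted p = 0.036). Its replicates nearly coincided, and its difference sat at the size threshold. The others, txnl1, txndc9, txndc5, txndc16 and txnl4b, had differences between -1.03 and 0.37 and were not called, and txndc11 and txnipb stayed under 1 RPKM.

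Glutaredoxins use glutathione to reduce mixed disulphides and help to build iron-sulphur clusters. glrx5, the mitochondrial iron-sulphur member, was called higher with 62.4 and 64.6 RPKM in hair cells and 30.28 RPKM in surrounding cells (log2 difference 1.04 ± 0.20 (SE), adjusted p = 0.030). After scaling by median ratios it was not called, at 0.71. The cytosolic glrx was lower by as much as several called genes but just missed the threshold, with 2.34 and 4.36 RPKM in hair cells and 12.4 RPKM in surrounding cells (-1.67 ± 0.41 (SE), adjusted p = 0.051). glrx3, a cytosolic iron-sulphur protein, differed more between the hair cell replicates than between the cell types, at 7.28 and 18.9 RPKM in hair cells and 5.38 RPKM in surrounding cells. glrx2, mitochondrial in mammals, had 2.86 and 3.74 RPKM in hair cells and 4.09 RPKM in surrounding cells.

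Glutathione synthesis starts with glutamate-cysteine ligase. Its catalytic subunit gclc was called higher, at 18.5 and 20.9 RPKM in hair cells and 7.38 RPKM in surrounding cells (log2 difference 1.30 ± 0.23 (SE), adjusted p = 0.026). After median-ratio scaling its difference was 0.99, just under the size threshold. The regulatory subunit gclm had 8.54 and 11.1 RPKM in hair cells and 5.07 RPKM in surrounding cells and was not called (0.83 ± 0.28 (SE), adjusted p = 0.10). gss, which completes the tripeptide, overlapped between the groups at 1.01 and 1.98 RPKM in hair cells and 1.35 RPKM in surrounding cells. gsr, the reductase that regenerates glutathione, had 3.84 and 4.53 RPKM in hair cells and 5.62 RPKM in surrounding cells, with an interval from -1.17 to 0.45. The 4 genes together summed to 31.8 and 38.5 RPKM in hair cells and 19.4 RPKM in surrounding cells.

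The cytosolic, mitochondrial and peroxisomal glutathione S-transferases were mixed, with 1 of 10 tested called higher and 2 lower (10% and 20%, against 17.7% and 18.0% of all genes). gstp1, the pi class enzyme, was among the most abundant transcripts of all cells and did not separate them. It had 344 and 443 RPKM in hair cells and 381 RPKM in surrounding cells, a log2 difference of 0.03 with an interval from -0.80 to 0.87, and lay above at least 99.2% of tested genes in each sample. The mu class gstm on chromosome 8 was called higher, with 86.8 and 97.5 RPKM in hair cells and 27.9 RPKM in surrounding cells (1.69 ± 0.21 (SE), adjusted p = 0.014). Its relative gstm3, also on chromosome 8, had 3.83 and 5.35 RPKM in hair cells and 1.32 RPKM in surrounding cells and was not called (adjusted p = 0.058). The theta class gstt1b was called lower at 4.42 and 4.84 RPKM in hair cells and 21.2 RPKM in surrounding cells (-1.98 ± 0.24 (SE), adjusted p = 0.013). gstal, an alpha class gene now named gsta.1, was called lower as well, at 12.8 and 9.47 RPKM in hair cells and 34.4 RPKM in surrounding cells (-1.56 ± 0.28 (SE), adjusted p = 0.028).

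The theta class copies differed in their calls. gstt1a had 0.936 and 1.31 RPKM in hair cells and 0.903 RPKM in surrounding cells, while gstt1b was lower in both hair cell replicates. gstk1, gsto2 and gstz1 had differences of 0.38, 0.38 and 0.03 and were not called, nor was gsto1 at 0.548 and 1.01 RPKM in hair cells and 0.607 RPKM in surrounding cells. gstp2 and the rows GSTK1 (1 of 4), GSTK1 (3 of 4) and GSTK1 (4 of 4) stayed under 1 RPKM. Neighbouring copies with no protein-coding gene between them were gsto1 and gsto2, gstp1 and gstp2, and gstk1 and GSTK1 (3 of 4). Reads of such copies, and of gstm and gstm3, may have been divided between them in a way that is not known here.

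Microsomal glutathione S-transferases sit in the membrane of the endoplasmic reticulum. All 4 had mean differences below 0, and 2 were called lower in hair cells (50%, against 18.0% of all genes). mgst1.1 on chromosome 4 was at 4.28 and 3.71 RPKM in hair cells and 34.1 RPKM in surrounding cells (log2 difference -2.82 ± 0.24 (SE), adjusted p = 0.0082), and the mean level was 8.55-fold lower. mgst1.2, on the same chromosome, was at 11.2 and 10.7 RPKM in hair cells and 50.7 RPKM in surrounding cells (-2.11 ± 0.21 (SE), adjusted p = 0.0094). Both hair cell samples lay far below the surrounding cells and nearly coincided. mgst3 had 2.59 and 4.83 RPKM in hair cells and 11.3 RPKM in surrounding cells and was not called (adjusted p = 0.072). mgst2 was at 4.95 and 10.5 RPKM in hair cells and 8.53 RPKM in surrounding cells, so that the groups overlapped, and its difference was 0.27 without hair cell replicate 1. The summed level of the 4 genes was 23.1 and 29.7 RPKM in hair cells and 105 RPKM in surrounding cells. That sum leaves out zgc:158387, now mgst3b, which escaped the choice by symbol and was not called. Its level was 90.3 and 115 RPKM in hair cells and 100.1 RPKM in surrounding cells. Summed keratin and epithelium markers were at 512 and 588 RPKM in hair cells and 12426 RPKM in surrounding cells and summed leukocyte markers at 70.0 and 52.1 RPKM against 1081 RPKM; their part in the lower calls was not tested.

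The regulators were called in opposite directions. nfe2l2a, the main zebrafish gene for Nrf2, was called lower in hair cells, at 7.72 and 8.17 RPKM against 30.9 RPKM in surrounding cells (log2 difference -1.84 ± 0.22 (SE), adjusted p = 0.013). keap1a, a gene for the adaptor that restrains Nrf2, was called higher, at 17.9 and 24.4 RPKM in hair cells and 7.02 RPKM in surrounding cells (1.45 ± 0.29 (SE), adjusted p = 0.035). nfe2l1b, which encodes the related factor Nrf1 that drives proteasome genes in mammals, was also called higher, at 8.57 and 9.07 RPKM in hair cells and 3.20 RPKM in surrounding cells (1.22 ± 0.24 (SE), adjusted p = 0.034). After median-ratio scaling nfe2l2a was still called lower, whereas keap1a and nfe2l1b were not called (adjusted p of 0.050 and 0.052). nfe2l3 had 2.93 and 3.43 RPKM in hair cells and 4.01 RPKM in surrounding cells and was not called. The second copies keap1b, nfe2l1a and nfe2l2b were all under 1 RPKM in every sample, at 0.710, 0.687 and 0.146 RPKM in surrounding cells.

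The quinone reductase nqo1 and the heme oxygenases are 4 genes, of which nqo1 and hmox1 are classic Nrf2 targets in mammals. They gave no call in limma, where 35.8% of all genes were called. In limma 2 of the 4 had an unadjusted p under 0.05, as did 8033 of all 15803 genes tested. The fit on recovered reads called 1 higher and 1 lower, where 18.4% and 21.1% of all genes were called. nqo1 came close on the lower side, with 6.17 and 11.6 RPKM in hair cells and 31.4 RPKM in surrounding cells (log2 difference -1.77 ± 0.44 (SE), adjusted p = 0.053), and it was called lower in the fit on recovered reads and after median-ratio scaling. The stress-induced heme oxygenase hmox1a had 21.0 and 16.0 RPKM in hair cells and 29.6 RPKM in surrounding cells (-0.66 ± 0.27 (SE), adjusted p = 0.14). hmox2a, of the constitutive form, also missed the threshold, at 17.0 and 22.9 RPKM in hair cells and 8.31 RPKM in surrounding cells (1.16 ± 0.28 (SE), adjusted p = 0.052). Its copy hmox2b differed most between the hair cell replicates, at 4.08 and 1.09 RPKM, with 2.04 RPKM in surrounding cells between them.

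Of the methionine sulfoxide reductases, 3 of 4 tested were called higher in hair cells (75%, against 17.7% of all genes) and none lower (against 18.0%), with a median difference of 1.71. msrb1a and msrb1b, copies of a selenoprotein of the cytosol and nucleus, had 14.3 and 20.0 RPKM and 15.8 and 20.9 RPKM in hair cells, against 3.48 RPKM and 4.15 RPKM in surrounding cells. Their log2 differences were 2.00 ± 0.31 (SE) with an adjusted p of 0.020 and 1.90 ± 0.28 (SE) with an adjusted p of 0.019. msrb3, whose human counterpart is a deafness gene, had 36.5 and 43.0 RPKM in hair cells and 13.1 RPKM in surrounding cells (1.53 ± 0.23 (SE), adjusted p = 0.019). All hair cell values of these 3 genes lay above those of the surrounding cells, and the calls held after median-ratio scaling but were lost with no filter on low values, at adjusted p of 0.068, 0.062 and 0.052. msra, which reduces the other stereoisomer of oxidised methionine, was the most abundant at 66.4 and 102 RPKM in hair cells and 45.2 RPKM in surrounding cells and was not called (0.85 ± 0.35 (SE), adjusted p = 0.14). msrb2 stayed under 1 RPKM in every sample.

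**Figure D3:**
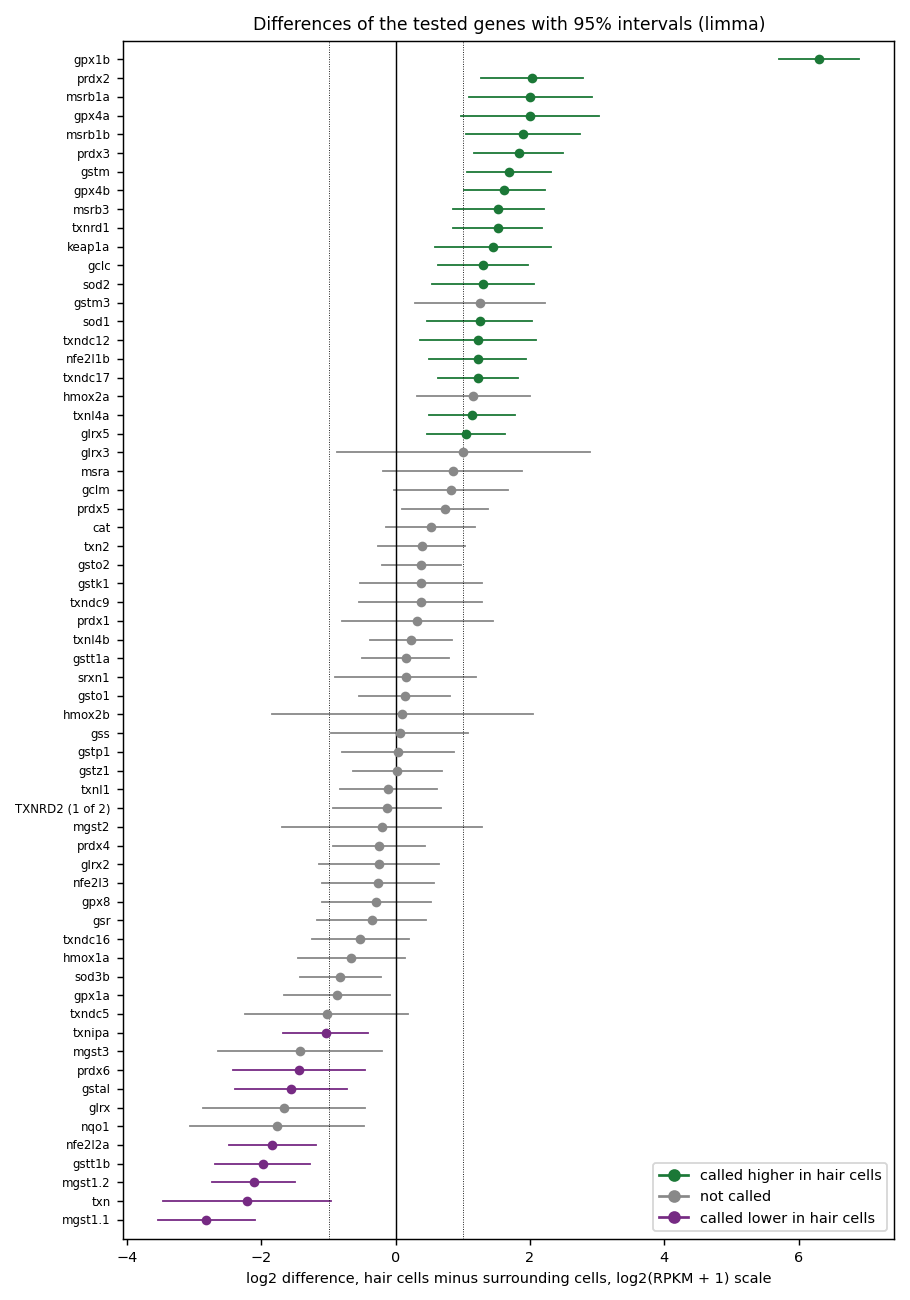
Log2 difference, hair cells minus surrounding cells, for the 63 tested genes on the log2(RPKM + 1) scale. Points are estimates and bars are 95% intervals from limma, green and purple mark genes called higher and lower, grey marks genes not called, and dotted lines mark a difference of 1 in each direction. The estimate for gpx1b is 6.31, and the next largest, for prdx2, is 2.03.

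Lists by the place of the protein, as known from mammals, held 40 of the 63 tested genes. The other 23, among them gpx4a, gpx4b, gstm, txndc17 and the methionine sulfoxide reductases msra, msrb1a, msrb1b and msrb3, were not listed, and 10 of these were called higher and 3 lower. In the lists, 3 of 7 tested mitochondrial genes (sod2, prdx3 and glrx5) were called higher, none was called lower and the median difference was 0.73. With TXNRD2 (1 of 2), which the list did not hold under that name, the count was 3 of 8 and the median 0.56. Of 22 listed cytosolic and nuclear genes, 5 were called higher and 3 lower, with a median of 0.14. Of 10 listed genes for proteins of the endoplasmic reticulum or secreted proteins, 9 had differences below 0, 1 was called higher (txndc12) and 2 lower (mgst1.1 and mgst1.2), with a median of -0.68. The 4 microsomal transferases were among these 10, while zgc:158387, now mgst3b, with a difference of 0.02, was not. Also among these 10 was sod3b, which passed the filter only through the surrounding cells, so that its direction was fixed. These medians stand beside 0.15 for all genes tested, and the counts beside 17.7% of all genes called higher and 18.0% called lower. The groups were not tested against each other. Genes described above as cytosolic, namely msrb1a, msrb1b and txndc17, were on no list although each was called higher. The counts and medians thus cover only a part of the genes of each place.

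Several of these enzymes are selenoproteins, which carry selenocysteine in the active site. Of the 8 selenoprotein genes tested, 6 were called higher (75%, against 17.7% of all genes) and none lower (against 18.0%). The 6 were gpx1b, gpx4a, gpx4b, txnrd1, msrb1a and msrb1b. The other 2, gpx1a and TXNRD2 (1 of 2), had differences of -0.88 and -0.13 and were not called. The grouping of selenoproteins was made after the values were seen. The calls of gpx4a, msrb1a and msrb1b were lost with no filter on low values. In a separate list of selenoprotein synthesis factors and other selenoproteins, 2 of 19 tested were called higher and 2 lower (10.5% in each direction), with a median of 0.17. selm and selk, of the endoplasmic reticulum, were the higher ones, with log2 differences of 1.80 and 1.15. sepp1a, the plasma selenium carrier, was at 30.2 and 44.2 RPKM in hair cells and 422 RPKM in surrounding cells (-3.49 ± 0.32 (SE)). sepw2b, a selenoprotein W gene, was at 1.47 and 3.33 RPKM in hair cells and 124 RPKM in surrounding cells.

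The pathways that feed and load these enzymes were examined through lists of genes outside the 77. NADPH supply, on which both glutathione and thioredoxin reductase depend, had 5 of 12 tested called higher and 1 lower, with a median difference of 0.59. That is 41.7% and 8.33%, against 17.7% and 18.0% of all genes tested. h6pd, the hexose phosphate dehydrogenase of the endoplasmic reticulum, was at 7.70 and 9.09 RPKM in hair cells and 0.375 RPKM in surrounding cells (2.77 ± 0.28 (SE)). The malic enzyme me1 was at 9.74 and 11.0 RPKM in hair cells and 1.11 RPKM in surrounding cells (2.43 ± 0.26 (SE)). The mitochondrial transhydrogenase nnt and pgd of the pentose phosphate pathway were called higher by 1.36 and 1.22.

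In the list of cysteine supply and glutathione turnover, 3 of 14 were called higher and 1 lower. That is 21.4% and 7.14%, against 17.7% and 18.0% of all genes tested. cbsa, which feeds cysteine synthesis, had a log2 difference of 2.13, the transporter gene abcc5 one of 2.04 and slc3a2b, the heavy chain of amino acid exchangers, one of 1.87. The methyltransferase gnmt was the lower one, at -1.30. Of the enzymes that make oxidants and their subunits, 9 of 13 were called lower in hair cells and none higher, with a median of -1.39. The lower share was 69.2%, against 18.0% of all genes tested. nox1 and its subunits noxa1 and noxo1a had 0.111 RPKM or less in hair cells and between 6.94 and 9.81 RPKM in surrounding cells. Such genes passed the filter only through the surrounding cells, so that their direction was fixed, and they are part of the share and median above. cyba, the shared membrane subunit, had 8.21 and 7.63 RPKM in hair cells and 37.4 RPKM in surrounding cells. Several of the others, such as ncf1 and ncf4, belong to the phagocyte oxidase, and the leukocyte markers were lower as well (6 of 8 called, lyz the other way); their part in these calls was not tested.

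Partners and repressors of Nrf factors gave 3 lower calls and no higher call among 14 tested (21.4% lower, against 18.0% of all genes). The fit on recovered reads gave 4 lower and 1 higher, where 21.1% and 18.4% of all genes were called. fosl2, mafk and mafa had log2 differences of -2.07, -1.72 and -1.16. bach1a and bach1b, which compete with Nrf2 on its targets in mammals, were close to equal at -0.09 and 0.01, and cul3a, for the ligase scaffold that works with Keap1, was at 0.21. Of 11 iron and heme genes, fth1b and fech were called higher (18.2%) and slc40a1, the iron exporter, lower (9.09%). The ferritin chain fth1a had 222 and 276 RPKM in hair cells and 284 RPKM in surrounding cells. Among 27 genes for aldehyde and quinone detoxification, 5 were called higher and 4 lower. These shares, 18.5% and 14.8%, lay near the 17.7% and 18.0% of all genes tested. mt2, a metallothionein, was at 68.5 and 36.6 RPKM in hair cells and 3.33 RPKM in surrounding cells, and aldh1a3 at 62.0 and 76.6 RPKM in hair cells and 8.67 RPKM in surrounding cells. park7, whose human counterpart protects against oxidative stress, was called higher by 1.40, and the paraoxonases pon1 and pon2 were called lower, at -2.50 and -2.36.

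**Figure D4:**
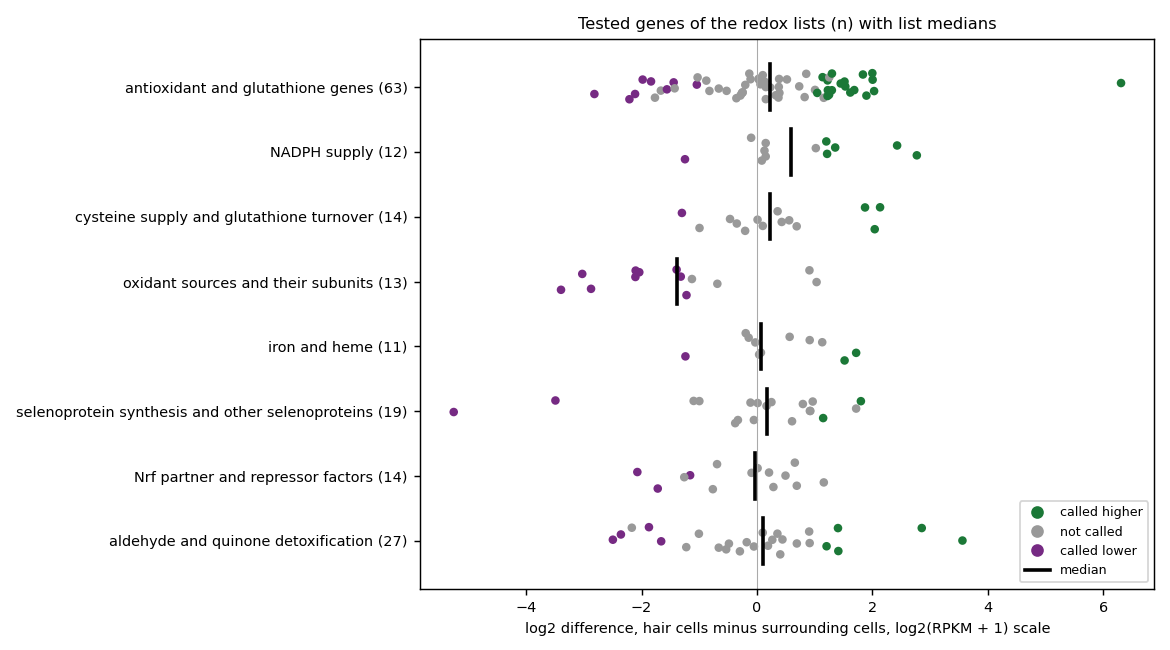
Log2 differences, hair cells minus surrounding cells, of the tested antioxidant and glutathione genes and of 7 lists around them, on the log2(RPKM + 1) scale. Each point is a gene, coloured by its call, black bars are list medians, and the number of tested genes is in brackets. Of the oxidant sources, 11 of 13 lie left of 0, with a median of -1.39, and NADPH supply has a median of 0.59. Some oxidant sources, such as nox1, passed the filter only through the surrounding cells.

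The hair cell replicates differed in a shared direction for most of these genes. Replicate 2 was above replicate 1 for 53 of the 63 genes (84.1%), against 52.3% of all genes tested, and the median difference was 0.20 against 0.02 on the log2 scale. The step was small for nearly all, and 2 genes differed by 2-fold or more between replicates, glrx3 by 1.26 and hmox2b by -1.28. That is 3.17% of the genes, against 2.66% of all genes. Replicate 2 also had more mapped reads than replicate 1 and another name prefix, and the part of either in the shift was not tested. Between technical replicates the median folds in RPKM, taken without regard to direction, were 1.06, 1.03 and 1.05 in hair cell replicates 1 and 2 and the surrounding cells. The largest folds were 1.345, 1.58 and 1.72. The signed median between the hair cell replicates is another measure, so the 2 were not compared.

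**Figure D5:**
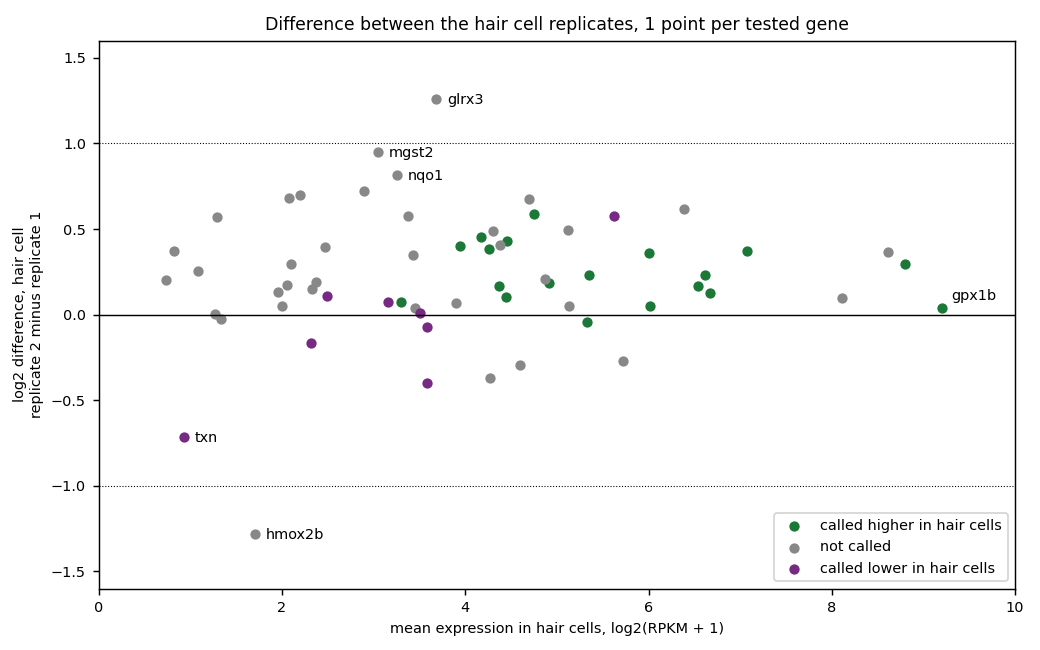
Difference between the hair cell replicates for the 63 tested genes. The x axis is the mean of log2(RPKM + 1) over both replicates, the y axis is replicate 2 minus replicate 1 on the same scale, colours give the call against surrounding cells, and dotted lines mark 2-fold. Most points (53 of 63) lie above 0, and glrx3 at 1.26 and hmox2b at -1.28 lie outside the dotted lines.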

How the data were processed

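RNA of each sample was isolated by Qiagen miRNeasy kit and amplified by Clontech Smart-Seq. The authors deposited RPKM values per gene and technical replicate, from reads mapped to build GRCz10 per the labels. Aligner, counter, annotation and strand setting were not given in the sources used here, and 4 columns of averages and standard deviations were set aside. Symbols and chromosomes are those of the table, and current symbols came from a name table that held 76 of the 77 identifiers.

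Technical replicates were averaged. Whole reads (within 0.001 of a read) and mapped totals were recovered from the steps between RPKM values, for 100% of tested genes. The smallest whole numbers that fitted all technical replicates were taken, so some read numbers could be too low. Among 11007 genes of few reads, the gene length that came with them was whole for 95.1%. Reads were not collapsed to molecules.

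Hair cells were compared with surrounding cells by limma 3.58.1 in R 4.3.3, with a variance trend, on log2(RPKM + 1), a scale that understates changes of low genes. Genes at 1 RPKM in at least 1 sample were kept, and p-values were Benjamini-Hochberg adjusted over all 15803. The fit had 1 residual degree of freedom, 3.42 after moderation. With 2 samples against 1, the smallest p of an exact permutation test is 0.333. The fit was also run on simulated data, but results of that run are not reported here and lend no support to the calls.

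All genes matching the symbols could be named. Full values were given for the 12 called genes with the largest difference in each direction, the main enzymes of each role and paralogs called differently, and up to 4 called genes per direction for the lists. Genes and lists were chosen with earlier results of these data known. Alternatives were pseudocounts of 0.1 and 5, other filters, median-ratio scaling, recovered reads with precision weights (voom), no variance trend, a rule of size and leaving out each hair cell replicate. Results for some genes of the lists are not reported here.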

Additional observations from a re-analysis of the deposited data

How the results depend on the processing

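No paired analysis was possible because the groups share only replicate number 1. With no filter on low values, 26520 genes were tested and 7 of the 77 genes were called higher and 5 lower, where 5.52% and 6.56% of all genes were. A filter of 5 RPKM left 52 genes with a median of 0.45, against 0.43 for all genes under that filter. Median-ratio scaling gave 10 higher and 13 lower among 63 genes, where 14.04% and 22.16% of all genes were. The median was then 0.00065, against -0.096 for all genes. That scaling moved these genes across 0: gstp1 to -0.30, gstz1 to -0.28, srxn1 to -0.15, gss to -0.14, hmox2b to -0.12, gstt1a to -0.018 and gsto1 to -0.0057. In the fit on recovered reads hmox2b was at -0.41. With 1 hair cell replicate left out there is no test. The median was 0.41 without replicate 1, against 0.17 for all genes, and 0.13 without replicate 2, against 0.14 for all genes. These genes lay on either side of 0 without replicate 1 and without replicate 2, respectively: hmox2b (-0.54 and 0.74), mgst2 (0.27 and -0.68), gss (0.35 and -0.23), gstp1 (0.22 and -0.15), srxn1 (0.44 and -0.14), gsto1 (0.32 and -0.054), prdx1 (0.66 and -0.015) and txnl1 (-0.26 and 0.035). None of these genes was called in the main comparison. The other counts stayed within 1.5 times the main ones, and adding 9 genes by current symbol, an alternative chosen after seeing the data, gave 20 higher and 9 lower (28.2% and 12.7%, against 17.7% and 18.0% of all genes). The 1 surrounding cell sample, with no spread of its own, limits every comparison here.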

Other observations

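Current gene names place 9 further rows of the table in the same families, 8 of which were tested, with 1 called higher in hair cells (the row for gpx2) and 1 lower. The lower one was zgc:173961, now gsta.2, an alpha class transferase. Its levels were 0.314 and 0.176 RPKM in hair cells and 1.57 RPKM in surrounding cells (log2 difference -1.05 ± 0.15 (SE)). It passed the filter only through the surrounding cells, so that its direction was fixed. The rule of size did not pick it, with a difference of -0.97 for hair cell replicate 1. gstal, the other alpha class gene, was called lower as well. zgc:158387, now mgst3b, was the most abundant microsomal transferase, at 90.3 and 115 RPKM in hair cells and 100.1 RPKM in surrounding cells, and unlike mgst1.1 and mgst1.2 it was not called, with a difference of 0.02 and an interval from -0.73 to 0.78. zgc:162356, now gstr, a rho class transferase, had 95.2 and 62.7 RPKM in hair cells and 61.4 RPKM in surrounding cells and was not called. zgc:66350, now gstt2, had 5.10 and 6.35 RPKM in hair cells and 2.23 RPKM in surrounding cells, and the theta class gstt1b lay in the other direction. zgc:173994, now GSTM3, a current symbol that the rows gstm and gstm3 also carry, was not called. Its levels were 4.28 and 8.87 RPKM in hair cells and 9.34 RPKM in surrounding cells. si:ch1073-358c10.1, now msrab, was near or under 1 RPKM throughout, and si:ch73-111m19.2, now gpx9, was at 0 in all samples.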
